A study of Mus musculus with 3647 samples.

Results

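Among nuclei sorted from mouse cortex on GFP, 93 held RNA of the neuronal vesicle-fusion gene Snap25 and none of Gad1, which encodes a GABA-synthesizing enzyme. They made up 30.4% of the Snap25-positive nuclei on 5 plates, and 93 of the 2653 nuclei and cells with expression values in the series of 3647 samples. They were selected on Snap25 above 0 and Gad1 at 0 TPM (transcript abundance per length, scaled to the same total in each nucleus), so the values of both genes chose the members and are given here only as description. The remaining Snap25-positive nuclei of the same plates held Gad1 and served as the comparison: 48, 20, 34, 56 and 55 nuclei on X061616p1, pfcP4, pfcP6, scxP9 and scxP10. The first 3 of these plates carried M2 cortex and the last 2 carried somatosensory cortex. All 5 were sorted on a violet signal and GFP, and the submitters describe the plates as Pvalb-positive nuclei. The sources used here do not give the driver of GFP, the strain or the age of the mice, and they name no animal. Nuclei with and without Gad1 therefore stand for 1 sample each and could not be tested against each other. The spread over plates and the exact binomial (Clopper-Pearson) 95% intervals are given as description and are no test. The intervals cover counting error only, take nuclei as independent and leave out differences between animals and between plates. Where a gene was found in 0 nuclei, the share allowed is instead 3 divided by the number of nuclei. This is lower than the exact upper limit: for 0 of 57 nuclei it is 5.26%, and the exact limit is 6.27%.

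Cortical neurons fall into GABAergic interneurons, which make GABA with the enzymes of Gad1 and Gad2, and glutamatergic projection neurons, which load glutamate into vesicles with the transporter VGLUT1, encoded by Slc17a7. Interneurons that express parvalbumin (Pvalb) arise in the medial ganglionic eminence (MGE), where the homeobox factors Dlx1, Dlx5 and Lhx6 specify them, and fire rapidly with the help of Kv3 potassium channels. Projection neurons are arranged in layers, and Fezf2 and Bcl11b are known for their role in the deep-layer neurons that project below the cortex.

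The nuclei without Gad1 carried a glutamatergic profile for the most part. Slc17a7 was found in 71 of the 93 (76.3%, interval 66.4 to 84.5%) and in 18 of the Gad1-positive nuclei (8.45%, 5.09 to 13%). Pvalb was found in 8 of 93 (8.60%, 3.79 to 16.2%) against 68.1% (61.4 to 74.3%). Of the deep-layer genes, Fezf2 was found in 17 of 93 (18.3%, 11 to 27.6%) against 2 nuclei with Gad1 (0.939%, 0.114 to 3.35%). Bcl11b did not separate the sides, at 33 of 93 (35.5%, 25.8 to 46.1%) against 71 nuclei with Gad1 (33.3%, 27 to 40.1%). In the mm10 build, Gad1 lies on chromosome 2 (70553072 to 70602014), Slc17a7 on chromosome 7 (45163949 to 45176142), Pvalb on chromosome 15 (78191114 to 78206400), Fezf2 on chromosome 14 (12342094 to 12348189) and Bcl11b on chromosome 12 (107910403 to 108003602).

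Every plate held such nuclei. They were 28 of 76 Snap25-positive nuclei on X061616p1 (36.8%), 22 of 42 on pfcP4 (52.4%), 13 of 47 on pfcP6 (27.7%), 15 of 71 on scxP9 (21.1%) and 15 of 70 on scxP10 (21.4%). The share over all plates was 30.4% (25.3 to 35.9%), with 38.2% in M2 cortex (30.7 to 46.1%) and 21.3% in somatosensory cortex (14.8 to 29%). Each M2 plate lay above both somatosensory plates, but no plate carried both regions, and region and plate cannot be told apart. A further 11 nuclei had no Snap25 and were left out, although 8 of them held Gad1. The Gad1 threshold was far from most nuclei: the lowest Gad1 values on the positive side were 3.14, 4.27 and 7.04 TPM, and the median was 708.1 TPM. The Snap25 threshold let in 2 nuclei at 0.53 and 4.22 TPM, followed by 1 at 17.8 TPM and the rest from 81.4 TPM upward. Median Snap25 was 1841 TPM without Gad1 and 944.9 TPM with it.

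Nuclei without Gad1 had fewer detected genes (genes above 0 TPM) on each of the 5 plates. They ran from 1585 to 5623 with a median of 3727, and the Gad1-positive nuclei from 2178 to 6625 with a median of 4137, a ratio of medians of 0.901. The medians without and with Gad1 were 4302.5 and 4760 on X061616p1, 3492.5 and 3896.5 on pfcP4, 3623 and 4018 on pfcP6, 3336 and 4140 on scxP9 and 3919 and 4016 on scxP10. The ranges of both sides overlapped on every plate. TPM keep no read depth, so detected genes stand in for it.

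**Figure D1:**
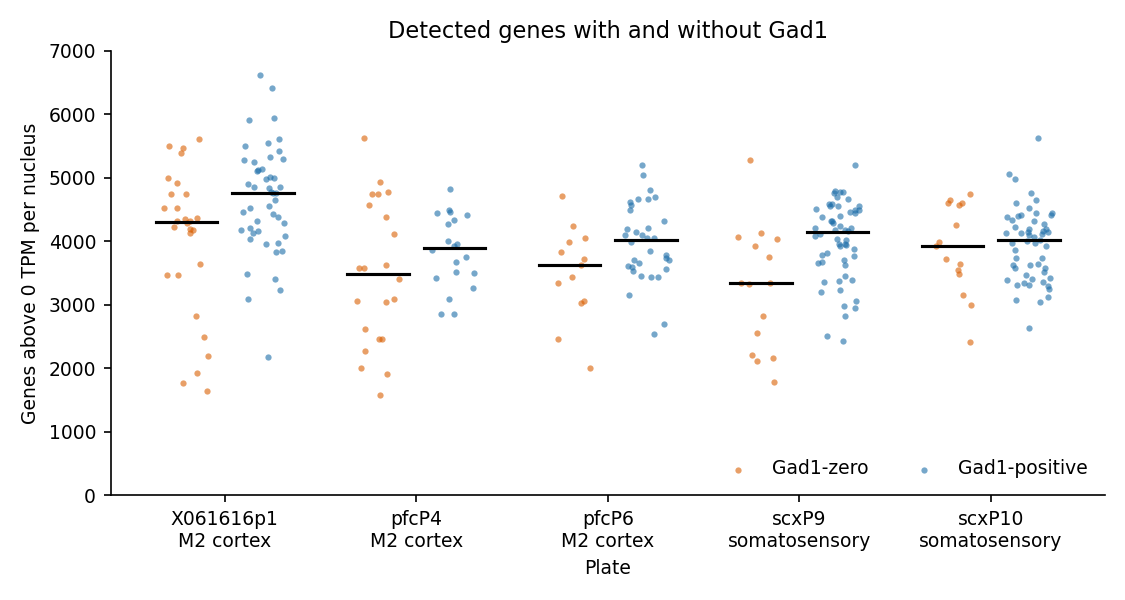
Genes above 0 TPM per nucleus (vertical axis) on each of the 5 plates, for nuclei without Gad1 (orange) and with Gad1 (blue); points are nuclei and black lines are medians. The orange median lies below the blue one on every plate, from 3336 against 4140 on scxP9 to 3919 against 4016 on scxP10, and the points overlap.

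The Snap25-positive nuclei were then put into 3 bins of equal size by detected genes. Gad1 was missing in 45 nuclei of the lower bin (1585 to 3658 genes; 44.1%, 34.3 to 54.3%), 23 of the middle bin (3671 to 4357 genes; 22.5%, 14.9 to 31.9%) and 25 of the upper bin (4363 to 6625 genes; 24.5%, 16.5 to 34%). The share was thus highest among nuclei with few detected genes, while the middle and upper bins differed by less than their intervals. In the upper bin the nuclei without Gad1 had a median of 4747 detected genes and those with it 4696. By this median, these 25 lacked Gad1 with as many genes detected as the other nuclei of that bin. The bins were cut over all plates pooled, however, and plates differed in detected genes. Medians without and with Gad1 were 4302.5 and 4760 on X061616p1 and 3336 and 4140 on scxP9. Bin and plate are thus mixed, and bins within single plates were not tested.

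Slc17a7 was found in 27 of 45 nuclei without Gad1 in the lower bin, 20 of 23 in the middle bin and 24 of 25 in the upper bin (96%, 79.6 to 99.9%). On the Gad1-positive side it was found in 0 of 57 (which allows a share of up to 5.26%), 5 of 79 and 13 of 77. The difference between the sides was present in each bin, and Slc17a7 was found more often with more detected genes on both sides. Pvalb was found in 3 of 45, 3 of 23 and 2 of 25 nuclei without Gad1 and in 34 of 57, 54 of 79 and 57 of 77 nuclei with it. Fezf2 was found in 5 of 45, 4 of 23 and 8 of 25 nuclei without Gad1, and in 0 of 57, 0 of 79 and 2 of 77 with it.

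A pair of sets of 15 listed genes each was counted in each nucleus to describe its profile by more than single markers. The first held glutamatergic genes such as Slc17a7, the transcription factor genes Neurod6 and Tbr1 and the synaptic vesicle gene Sv2b. The second held 4 GABA genes, among them Gad2, Slc32a1 (the vesicular GABA transporter) and Abat (GABA transaminase), and 11 genes of MGE interneurons. Nuclei without Gad1 held 0 to 12 glutamatergic genes with a median of 7, and 0 to 9 GABAergic genes with a median of 1. Gad1-positive nuclei held 0 to 11 with a median of 2, and 2 to 14 with a median of 8. Glutamatergic genes outnumbered GABAergic ones in 81 of the 93 nuclei without Gad1 (87.1%) and in 5 nuclei with it (2.35%). Without Gad1 this was so in 37 of 45 nuclei of the lower bin, 20 of 23 of the middle bin and 24 of 25 of the upper bin, and on the plates from 9 of 13 on pfcP6 to 26 of 28 on X061616p1.

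**Figure D2:**
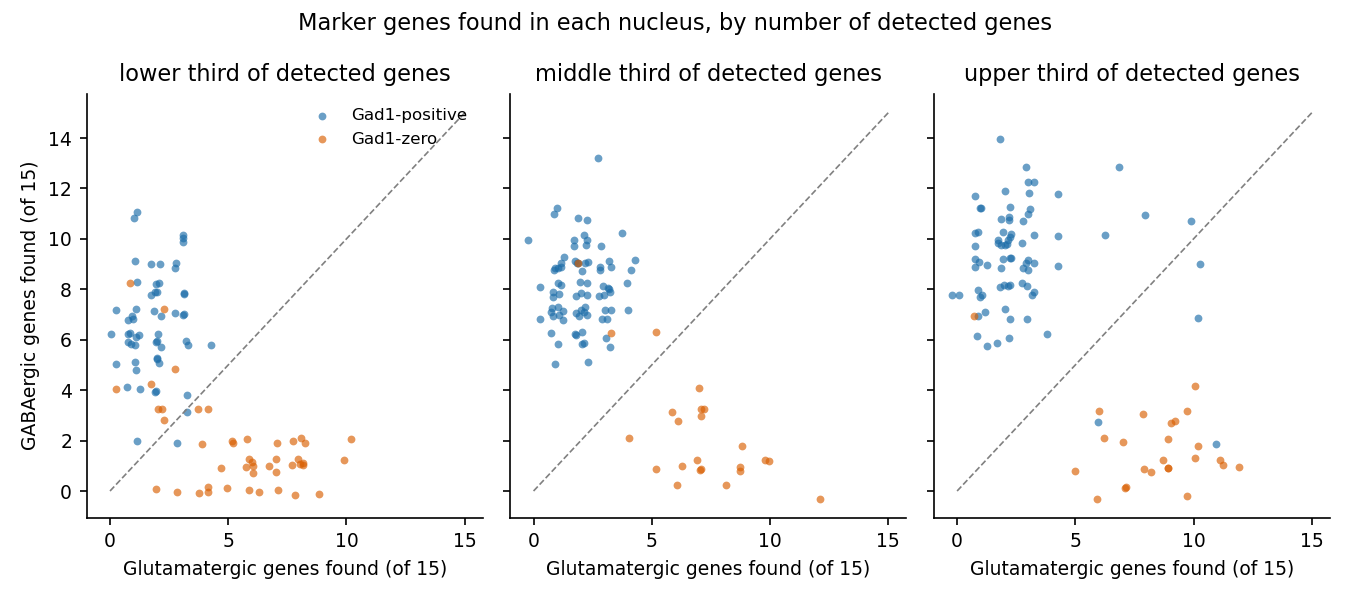
Number of 15 glutamatergic genes (horizontal axis) and of 15 GABAergic genes other than Gad1 (vertical axis) found in each nucleus, in 3 panels by detected genes; orange points lack Gad1, blue points hold it, and the dashed line marks equal numbers. In each panel most orange points lie below the line (37 of 45, 20 of 23 and 24 of 25) and most blue points above it. Points are shifted slightly at random so that they do not hide each other.

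Gad2, which encodes the other GABA-synthesizing enzyme, was found in 42 of the 93 nuclei without Gad1 (45.2%, 34.8 to 55.8%) and in 85.9% of nuclei with it (80.5 to 90.3%). The levels behind these shares were unlike. Where found, Gad2 ran from 0.55 to 400.7 TPM with a median of 3.67 TPM without Gad1, and from 0.75 to 839.9 TPM with a median of 134.7 TPM with it. Above 10 TPM, 5 of 93 nuclei (5.38%) remained without Gad1 and 70.4% with it. Thus the large share of Gad2-positive nuclei among those without Gad1 was made almost wholly of values under 10 TPM. Slc17a8, encoding a further vesicular glutamate transporter, showed the same kind of low values on both sides: it was found in 57% and 60.1% of nuclei with medians of 4.22 and 4.26 TPM, and above 10 TPM in 8 and 9. Slc17a7 did not, as 65 of its 71 positive nuclei without Gad1 exceeded 10 TPM, with a median of 75.3 TPM and a highest value of 1934 TPM.

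Slc17a7 and Gad2 were found together in 31 of the 93 nuclei, Slc17a7 alone in 40, Gad2 alone in 11 and neither in 11. With a threshold of 10 TPM these counts were 1, 64, 4 and 24. Among the Gad1-positive nuclei, 15 held both, 3 Slc17a7 alone, 27 neither and the rest Gad2 alone. Detected genes had a median of 2467 in the 11 nuclei with none of the 3 transcripts and of 4120.5 in the 40 with Slc17a7 alone.

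**Figure D3:**
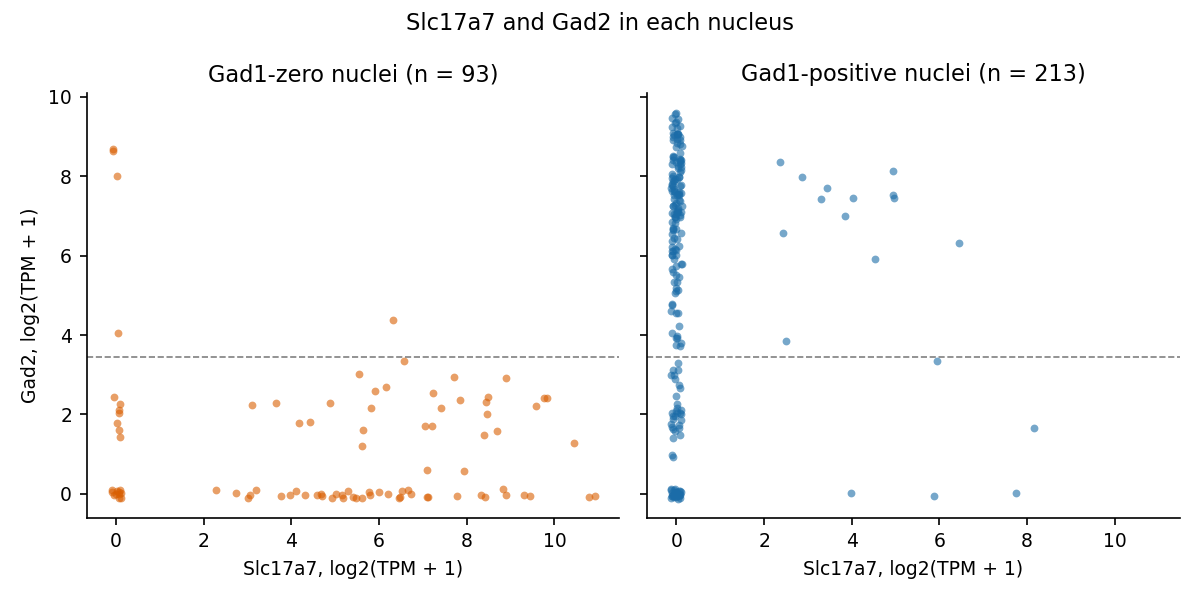
Slc17a7 (horizontal) against Gad2 (vertical) as log2 of TPM plus 1 in each nucleus, without Gad1 at left (93 nuclei) and with it at right; the dashed line is at 10 TPM of Gad2, and points are shifted slightly. At left nearly all Gad2 values lie under the line (5 nuclei above it) and spread along Slc17a7, while at right 70.4% of nuclei lie above it.

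The 22 nuclei without Gad1 and without Slc17a7 formed a mixed remainder. They had a median of 2928 detected genes and 18 of them lay in the lower bin. Glutamatergic genes outnumbered GABAergic ones in 11 and the reverse held in 11. Arpp21, which encodes a cAMP-regulated phosphoprotein of forebrain neurons, was found in 10. Over all 93 nuclei, 12 had more GABAergic than glutamatergic genes: the neuregulin receptor gene Erbb4 was found in 8 of these and Pvalb in 5. They came from every plate, with 2 on each except pfcP6, which held 4.

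Of the 8 nuclei without Gad1 that held Pvalb, 5 were on scxP9, 2 on pfcP6 and 1 on pfcP4. Their Pvalb ran from 9.97 to 738.01 TPM with a median of 305.9 TPM, against a median of 162.2 TPM in the Gad1-positive nuclei with Pvalb. Erbb4 was found in 5 of the 8, Slc17a7 in 3, Arpp21 in 3 and Fezf2 in 2. Neither a GABAergic nor a glutamatergic profile was thus shared by all 8. On X061616p1 Pvalb was found in 0 of 28 nuclei without Gad1 (which allows up to 10.7%) and on scxP10 in 0 of 15 (up to 20%).

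On the other side, 18 Gad1-positive nuclei held Slc17a7, 9 of them on X061616p1. Their Gad1 ran from 3.14 to 2062 TPM with a median of 473.3 TPM, against 727.02 TPM in those without Slc17a7, and none lay in the lower bin. Pvalb was found in 13 of the 18, and GABAergic genes outnumbered glutamatergic ones in 14. Slc17a7 in these nuclei ran from 3.80 to 285.6 TPM.

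Markers of other cell types were measured beside these profiles. Summed over 31 listed markers of oligodendrocytes, their precursors, astrocytes, microglia and endothelium, 10 of the 93 nuclei without Gad1 exceeded 5000 TPM, 8 of them on X061616p1, and so did 5 nuclei with it. The nuclei at 0.53 and 4.22 TPM of Snap25 had 23087 and 7701 TPM of the microglial complement gene C1qb, and both lacked Slc17a7. Over the plates, summed means without and with Gad1 were 132.2 to 3546 and 151.1 to 451.2 TPM for the 8 oligodendrocyte markers, 455.7 to 1227.5 and 143.3 to 438.99 TPM for the 8 astrocyte markers and 64.3 to 4026 and 91.9 to 386.4 TPM for the 7 microglial markers. The astrocyte sums were made mostly of Slc1a2 (mean over plates 249.98 TPM without and 33.1 TPM with Gad1) and Aldoc (231.6 and 175.1 TPM). Gfap came next without Gad1, at 48.9 and 20.1 TPM. Of the 4 ependymal markers, Rarres2 and Tmem212 were at 0 in every nucleus compared, while Foxj1 was found in 1.08% of nuclei without and 5.63% with Gad1 and Ccdc153 in 1.08% and 1.41%. Without the nuclei above 5000 TPM, 83 nuclei without Gad1 remained, and in the next comparison 36.4% rather than 36.7% of the called genes were higher, with 9 rather than 11 of the glutamatergic list among them. The part of such RNA in the other results was not tested.

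Expression was compared for 10938 genes found in at least 10% of the nuclei of either side. The log2 ratio is that of mean TPM without over with Gad1, each averaged over the 5 plate means, with a pseudocount of 1 TPM. A gene was called when this ratio was at least 1 in size and had the same sign on all 5 plates. By this rule 4.56% of the genes were higher without Gad1 and 7.86% lower, so that 36.7% of the called genes were higher, and the median over all genes was -0.05. When mean log2 values were subtracted instead, 26.4% of the called genes were higher, and the median over all genes moved to -0.21.

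The 12 genes with the highest ratio were taken from those found in at least 20% of the nuclei without Gad1, the side where they are high. Cd34, a surface sialomucin best known from blood progenitors and endothelium, averaged 130.1 TPM without and 1.44 TPM with Gad1 (log2 ratio 5.75, SD over plates 2.80) and was found in 35.5% against 1.41% of nuclei. On pfcP4 Cd34 averaged only 1.84 TPM without Gad1 and 0 TPM with it, and on the other plates 103.3 to 233.4 TPM without Gad1. The X061616p1 mean with Gad1 was 7.18 TPM, above that of pfcP4 without it, so the plates overlapped. The endothelial marker Cldn5 was found in 2.15% and 0.939% and averaged 31.7 and 1.60 TPM, without Gad1 on X061616p1 alone. Kcnh4, an Elk-family potassium channel gene, averaged 68.3 against 0.353 TPM (5.68, SD 0.87), and Serinc2, of the serine incorporator family, 184.3 against 3.12 TPM (5.49). Arpp21 averaged 967.5 against 30.9 TPM (4.92) and was found in 83.9% against 8.45% of nuclei. On the plates it averaged 946.4, 1314, 741.1, 709.2 and 1126.5 TPM without Gad1 and 82.02, 4.04, 63.4, 5.02 and 0.145 TPM with it, so the plates did not overlap. Baiap2, encoding a postsynaptic regulator of actin, averaged 1280 against 53.7 TPM (4.55) and was found in 87.1% against 9.39%, more often than Slc17a7 itself.

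Slc17a7 averaged 393.6, 151.96, 19.1, 77.4 and 63.3 TPM without Gad1 on X061616p1, pfcP4, pfcP6, scxP9 and scxP10. With Gad1 it averaged 15.6, 2.75, 1.06, 0.420 and 0.557 TPM (log2 ratio 4.81, SD 0.99). Every plate without Gad1 lay above every plate with it, and pfcP6 was the lowest of the former. The other genes of the 12 were the formin gene Inf2 (4.65), the Ras-GTPase activator Rasal1 (4.61), the extracellular matrix genes Podn and Col6a2 (4.66 and 4.62), the sodium, calcium and potassium exchanger Slc24a4 (4.59) and 9130024F11Rik (5.14).

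Of the 12 genes with the lowest ratio, Dlx5, Dlx1 and Cox6a2 are on the interneuron lists. Dlx5, a homeobox factor of the GABAergic lineage, was listed at 0 in all 93 nuclei without Gad1 (which allows a share of up to 3.23%) and averaged 114.2 TPM with it, where 32.9% of nuclei held it. Cox6a2, a respiratory chain subunit, and the membrane protein gene Tmem132c were also listed at 0 and averaged 99.6 and 24.2 TPM with Gad1. Kcnip1, which encodes an accessory protein of Kv4 channels, averaged 0.238 against 141.5 TPM (log2 ratio -6.85, SD 0.57) and was found in 1.08% against 53.99%. Dlx1 averaged 0.206 against 53.95 TPM (-5.51) and was found in 3.23% against 41.8%. Its antisense transcript Dlx1as had -4.87, and as no source used here states how strand was handled, the reads of this pair cannot be told apart. Crhbp, which binds corticotropin-releasing hormone, had -5.96, Fam150b, which encodes a ligand of the receptor kinase ALK, -5.88, Rnd3 -5.32 and Moxd1 -4.66. The GTPase gene Rab37 and the zinc finger gene Zfp467 had -4.595 and -4.47.

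**Figure D4:**
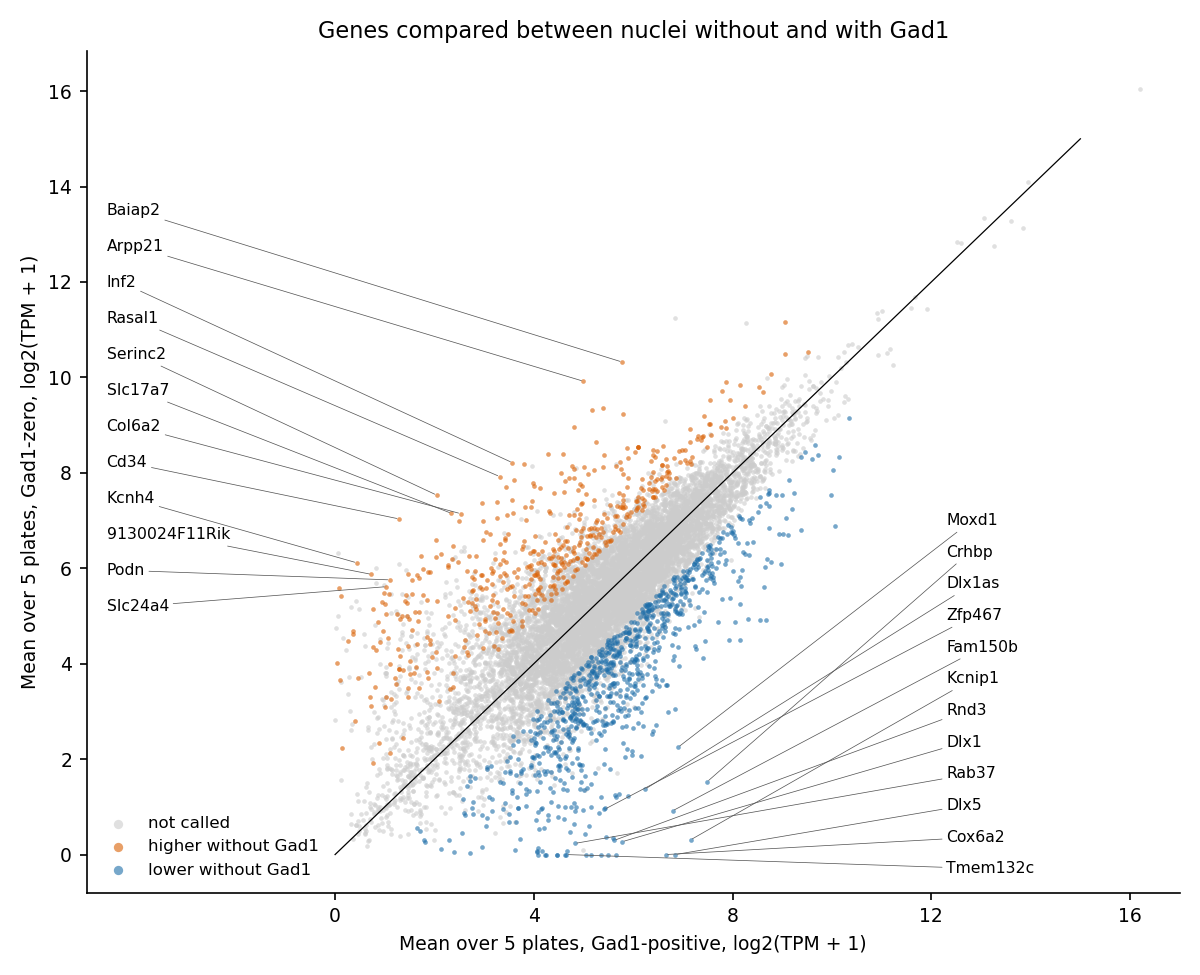
Mean over the 5 plates of each gene with Gad1 (horizontal) and without it (vertical), as log2 of TPM plus 1, for the genes found in at least 10% of nuclei of either side; orange genes were called higher without Gad1 (4.56%), blue ones lower (7.86%), and the 24 named genes are labelled. Dlx5, Cox6a2 and Tmem132c lie on the floor of the vertical axis, at 0 TPM without Gad1.

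The lists of marker genes were scored on the same nuclei and ratios and share members with the genes above, so they give no separate support. Beside the counts called in each list, 4.56% of all genes compared were higher and 7.86% lower. Of the 15 cortical glutamatergic genes, 12 were found often enough to compare and 11 were higher without Gad1, none lower, with a median log2 ratio of 3.58. Neurod2 and Neurod6, basic helix-loop-helix factors of projection neurons, had 4.42 and 4.26, Tbr1, a T-box factor of early-born projection neurons, 3.44, and Sv2b 3.35. Camk2a, the kinase gene often used to mark projection neurons, was found on both sides (96.8% and 76.995%) and had 1.98. Slc17a8 was the exception at 0.07, and Slc17a6, Neurod1 and Emx1 were too rare to compare.

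Of the 4 GABA genes, 3 were lower and none higher, with a median of -3.02. Gad2 averaged 1.47, 2.26, 31.5, 26.3 and 20.2 TPM without Gad1 on the 5 plates in the order above and 124.3, 234.1, 216.5, 140.6 and 128.99 TPM with it, and the plates did not overlap. Its log2 ratio was -3.29, that of Slc32a1 -2.86, and that of Abat -1.79 with a lower mean on 4 of 5 plates. Of the 11 MGE genes, 9 were lower and none higher, with a median of -2.96. Nxph1, an extracellular ligand of neurexins, had -3.37, Lhx6 -2.97 and Erbb4 -2.90, while Sox6, at -1.95, was lower on 4 of 5 plates.

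Of the 14 genes of parvalbumin interneurons, 13 could be compared, 10 were lower and none higher, with a median of -2.11. The Kv3 channel genes Kcnc1 and Kcnc2 had -2.22 and -2.88 and were found in 40.9% and 38.7% of nuclei without Gad1 against 96.7% and 97.7% with it. The substance P precursor gene Tac1 had -2.64. Pvalb had -2.11 with a wide SD over plates of 3.53. On X061616p1, pfcP4, pfcP6, scxP9 and scxP10 Pvalb averaged 0, 1.90, 94.04, 82.6 and 0 TPM without Gad1 and 252.2, 90.5, 104.1, 185.5 and 152.7 TPM with it. The pfcP6 mean without Gad1 was above the pfcP4 mean with it, so the plates overlapped. Other interneuron classes were mixed. Of 7 genes of somatostatin interneurons 3 could be compared, and the peptide gene Npy was lower (-2.41) and none higher. Sst (somatostatin) itself was found in 0 of 93 nuclei without Gad1 (up to 3.23%) and in 14 nuclei with it (6.57%). Of 14 genes of interneurons from the caudal ganglionic eminence 4 could be compared, with a median of 0.46: Lamp5 and the peptide gene Cck were higher without Gad1 (2.75 and 1.30) and Reln was lower (-1.81). Lamp5 is also on the upper-layer list and Cck on the glutamatergic one.

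Genes of deep and of upper layers were among those called. Of the 14 layer 5 genes, 9 could be compared and 3 were higher without Gad1, none lower, and the list median of 0.20 was near that of all genes. It fell to -0.07 without pfcP4 and -0.06 without pfcP6. Pcp4, which encodes a calmodulin-binding peptide, averaged 328.7 against 41.5 TPM (log2 ratio 2.95) and was found in 37.6% against 8.92%. Crym, which encodes a thyroid hormone-binding protein, had 2.10, and Ldb2, a cofactor of LIM-homeobox proteins, 2.60. Of the 13 layer 6 genes, 6 could be compared and 2 were higher, none lower, with a list median of 1.76: the heparan sulfate-modifying enzyme Sulf1 had 5.29 and the synaptotagmin Syt6 2.30. Ntsr1, a neurotensin receptor gene of layer 6 neurons projecting to the thalamus, was too rare to compare, with 7 of 93 nuclei against no nucleus with Gad1 (up to 1.41%). Of the 10 upper-layer genes, 7 could be compared, with a list median of 1.11: Lamp5 was higher (2.75), while Cux2 and Rasgrf2 were lower (-1.09 and -1.31) and were found in 52.6% and 66.7% of Gad1-positive nuclei.

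Fezf2 averaged 5.90, 39.9, 1.30, 55.8 and 31.4 TPM without Gad1 on the 5 plates in the order above, and 0.461, 0, 3.27, 0 and 0 TPM with it. Its log2 ratio was 4.00 (SD 2.83), but it was not called, because pfcP6 was lower without Gad1. Leaving out pfcP6 made it called, with 4.94, and so did subtracting mean log2 values, with 1.14. Of the 17 nuclei with Fezf2 and without Gad1, 16 held Slc17a7, 10 Bcl11b, 9 Pcp4, 8 the layer 6 gene Hs3st4, 7 Crym, 6 Gad2, 5 Foxp2 and 2 Pvalb. Bcl11b averaged 13.7, 44.4, 31.1, 6.89 and 22.7 TPM without Gad1 and 25.1, 24.5, 11.5, 19.7 and 22.1 TPM with it, which gave a log2 ratio of 0.20 (SD 1.14) with overlapping plates. Fezf2 thus differed between the sides in the share of nuclei that held it, while the intervals for Bcl11b on the 2 sides overlapped almost wholly.

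**Figure D5:**
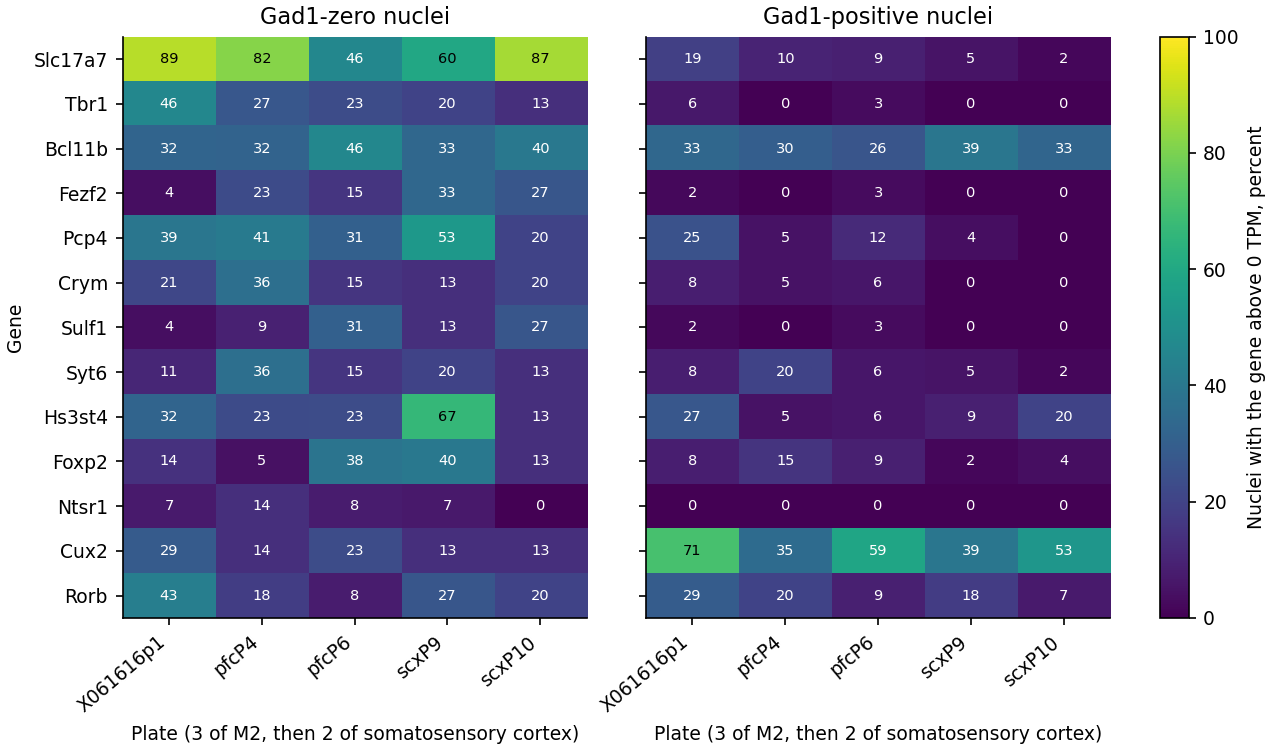
Percent of nuclei with each gene above 0 TPM, by plate (columns) and gene (rows), without Gad1 at left and with it at right; colour and printed numbers give the percent, rounded. Slc17a7 runs from 46.2 to 89.3% at left, Bcl11b is similar in both panels, and Fezf2, Pcp4, Crym and Sulf1 are more frequent at left while Cux2 is more frequent at right.

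Calls in other gene groups went lower, higher or both ways, or were absent. Of 9 AMPA and NMDA receptor subunits 7 could be compared, and Gria1 and Gria4 were lower without Gad1 (-1.16 and -1.96) while Gria2, at 692.2 against 695.1 TPM, had -0.01. None of the 8 sodium channel genes was called, and their ratios ran from -0.96 for Scn4b to 1.81 for Scn3b. Of the genes for the extracellular matrix that wraps parvalbumin cells (perineuronal nets), Bcan and Hapln4 were lower (-2.44 and -1.85) and Ncan was higher (1.65), with a list median of -1.64 over 5 compared genes. Of 8 genes of striatal projection neurons 4 could be compared, and Ppp1r1b (4.16) and Rgs9 (2.98) were higher and none lower. The glutamate transporter gene Slc1a2, listed as an astrocyte marker, was higher (2.88) and was found in 82.8% of nuclei without Gad1 against 27.2% with it. Of the astrocyte markers too rare to compare, Aqp4 was found in 5.38% and 2.82%, and averaged 18.1 and 0.986 TPM. Aldh1l1 was found in 9.68% and 0.469%, and Gfap in 6.45% and 7.98%. The source of the Slc1a2 RNA was not tested. Of the 8 oligodendrocyte markers 3 could be compared, and Mbp was higher (1.64) and none lower. Mbp was found in 35.5% of nuclei without Gad1 against 19.7% with it.

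Of the 8 immediate early genes, which neurons induce on activity, 6 could be compared and 4 were higher without Gad1, none lower, with a list median of 2.34. Arc averaged 470.5, 830.9, 174.4, 981.3 and 837.9 TPM without Gad1 and 35.9, 82.1, 52.3, 17.1 and 16.3 TPM with it, and the plates did not overlap (log2 ratio 3.98, SD 1.69). Egr1 had 2.18, Junb 2.50 and Nr4a1 1.59. When only the 71 nuclei that also held Slc17a7 stood for the side without Gad1, the ratios of Arc and Egr1 were 4.07 and 2.25, but both lost their call, and 1 of the 8 genes, Nr4a1, kept it. The sign changed on pfcP6 only, where 6 nuclei remained and Arc averaged 23.9 TPM against 52.3 TPM with Gad1 and Egr1 52.3 against 55.1 TPM.

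Within the nuclei without Gad1, the 63 of M2 cortex were set beside the 30 of somatosensory cortex. Slc17a7 was found in 77.8% and 73.3%, Bcl11b in 34.9% and 36.7% and Pcp4 in 38.1% and 36.7%, differences well inside their intervals. Fezf2 was found in 12.7% (5.65 to 23.5%) and 30% (14.7 to 49.4%), and these intervals overlap. Of 9795 genes found in at least 10% of these nuclei, 9.08% had 2-fold or higher means in M2 cortex with all its plates above both somatosensory plates, and 6.76% the reverse. Of the genes compared, the lists held 2 of 12 glutamatergic, 1 of 9 layer 5, 1 of 7 upper-layer and 0 of 6 layer 6 genes. These counts are too small to set apart from the shares over all genes. The genes were Crym (136.4 against 33.1 TPM), Itpka, an inositol trisphosphate kinase gene (158.6 against 30.2 TPM), and the peptide gene Cck (1533 against 399.9 TPM) in M2 cortex. In somatosensory cortex it was the POU factor Pou3f2 (1.36 against 47.9 TPM). With 3 and 2 plates and no animal named, region and plate cannot be told apart for any of them.

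The same rule was applied to the other GFP-sorted plates of the same table. In hippocampus it chose 56.1% of the Snap25-positive nuclei on 7 plates (51.1 to 61.1%), against 30.4% in cortex. Slc17a7 was found in 73.6% of the hippocampal nuclei without Gad1 (67.3 to 79.3%) and Fezf2 in 17.3% (12.5 to 22.9%), close to the 76.3% and 18.3% of cortex. Gad2 was found in 25.5% (19.8 to 31.7%), below the interval in cortex, and above 10 TPM in 3.18%. In striatum, which has no VGLUT1 projection neurons of its own, 18 of 46 nuclei lacked Gad1 and Slc17a7 was found in 0 of them (up to 16.7%), with Gad2 in 7. Plates and regions coincided here too.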

How the data were processed

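Sucrose-gradient nuclei were sorted and their RNA libraries prepared by an adapted Smart-seq2 method, per the labels' protocols. The authors deposited TPM for 871 nuclei outside the thalamic reticular nucleus and 23420 genes, with column totals of 999999 to 1000000. The build was mm10 and the tools included TopHat2 2.0.10, Seurat 2.2.0, Bowtie and RSEM, without roles or order, per the submitters' processing notes. The sources used here do not say how nuclei were selected for deposit; each one with values had at least 1585 detected genes on the 5 plates. TPM rescale each library to 1 total, so an abundant transcript lowers all others, and no read depth remains. The other tables were not used.

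Columns were matched to samples by the names in the labels, and no 2 nuclei had identical values. Groups follow the labels' plate type. Shares, plate means and log2 ratios were computed with Python 3.11.15, numpy 2.4.6, pandas 2.3.3 and scipy 1.17.1, and figures used matplotlib 3.10.9. The gene comparison was checked on Gad1-positive nuclei redrawn into 2 sides, with commonly found genes raised on a single side. That check did not cover raised values of rare genes. Named genes were the 12 called genes of highest and the 12 of lowest ratio found in at least 20% of the higher side, and members of the 21 marker lists. Members and lists were chosen with earlier results of these data known. Gene positions come from the GENCODE M21 annotation of mm10. Alternatives covered detection thresholds, pseudocounts, filters, weighting, membership and leaving out each plate. Some genes of the lists are counted but not reported by name here.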

Additional observations from a re-analysis of the deposited data

How the results depend on the processing

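TPM without counts, few nuclei per plate (13 to 28 without Gad1) and no named animal limit precision. The 24 named genes kept their direction under every alternative tried, and all 24 stayed called except under a minimum of 3000 detected genes (11 of 12 higher) and with Gad2 and Slc32a1 also at 0 (10 of 12 higher). That last membership held 16.3% of Snap25-positive nuclei, its MGE list median was -4.61, and 0 layer 6 and 2 immediate early genes were called in place of 2 and 4. Detection above 1 TPM changed membership by 1 nucleus. Above 10 TPM, Gad2 was found in 5.38% of nuclei without and 70.4% with Gad1 and Bcl11b in 21.5% and 18.8%; Slc17a7 alone then made up 68.8%, both 1.08% and neither 25.8%, and hippocampal Slc17a7 was 67.3%. This threshold and the exclusions by glial markers and by Slc17a7 were chosen after seeing the data. Pooling nuclei without plates, where no sign on single plates is asked for, gave 12.5% of compared genes higher and 14.5% lower, and weighting the 3 bins of detected genes equally, likewise without plates, gave 9.41% higher and 11.3% lower. Without the filter on detection, more rare genes were compared and 2.70% were higher. Leaving out 1 plate, which asks for the same sign on fewer plates, gave 5.45 to 6.49% higher and 9.51 to 10.8% lower. List medians depended on the scale: the glutamatergic one changed from 3.58 to 2.41 when 10 TPM were added and to 2.30 when mean log2 values were subtracted, and the upper-layer one from 1.11 to 0.29 and 0.30. The upper-layer median ran from 0.54 to 1.21 over plates left out and the layer 5 one from -0.073 to 0.56, with -0.073 without pfcP4 and -0.059 without pfcP6. The layer 6 median was 3.49 with at least 3000 detected genes, with 4 genes called, and the GABA list median -4.81 with Slc17a7 required. Where no construction is named, the cause was not tested. No paired analysis was possible because no test was run and the only replicate numbers name single nuclei in accession order; both sides share the plates, and the call rule already asks for the same sign within each plate.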
